A study of Mus musculus with 20 samples.

Results

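The 10 classical apolipoprotein genes of the mouse, Apoa1, Apoa2, Apoa4, Apoa5, Apob, Apoc1, Apoc2, Apoc3, Apoe and Apom, were followed across the livers of 20 adult mice. They were chosen by name, as the genes of the protein components of plasma lipoproteins, and are 10 of the 25444 gene loci in the deposited tables. All 10 passed the filter on low counts, as did 13704 loci in all. RNA-seq libraries of total liver RNA were made from 4 groups of 5 mice, namely C57BL/6N (B6) females, B6 males, C3H/HeN (C3) females and C3 males, all aged 20 weeks. The mice of both strains came from 1 supplier, were housed singly, changed from NIH-31 chow to the NTP2000 diet in the last weeks, and gave tissue from the left lateral lobe. Each sex had a room of its own, and differences by sex and by room cannot be told apart. No gene was altered in either inbred strain, and each library came from 1 mouse.

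Apolipoproteins wrap the lipid droplets of plasma lipoproteins, keep them soluble and act as ligands or enzyme cofactors. Apob is the structural protein of very low density and low density lipoprotein, Apoa1 and Apoa2 are the main proteins of high density lipoprotein, and the smaller Apoc proteins, Apoa5 and Apoe govern how fast the particles are hydrolysed and taken up. The liver is the main source of most of them in the mouse, while Apoa4 is known mostly as a product of the small intestine and Apom as the carrier of sphingosine 1-phosphate on high density lipoprotein.

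Strand-specific libraries held between 27370921 and 46835745 counted read pairs each and were sequenced in 3 pools of 8, 5 and 7 libraries, each with 1 or 2 mice of every group. Pool 3 was the deepest, with 38928480 to 46835745 counts, and pool 2 the shallowest, with 27370921 to 31280663. The hepatocyte marker genes summed to between 76712 and 160560 TPM per liver, where TPM is a count scaled by gene length and library total, and Alb alone averaged from 65382 TPM in B6 males to 125358 TPM in C3 females. Summed markers of Kupffer cells, the resident macrophages, lay between 165 and 495 TPM, and those of stellate and endothelial cells between 199 and 496 TPM. Of the 8 enterocyte markers, 5 were listed at 0 in all livers of each group except C3 males, where 2 were, and Fabp2, which hepatocytes also express, made up nearly all of a sum that averaged from 109 to 136 TPM. Summed bile duct, leukocyte and pancreatic acinar markers reached at most 52.3, 17.3 and 1.9 TPM.

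Of these 10 genes, 7 lay in a pair of clusters (mm9 coordinates of the files, 1-based). On chromosome 9, Apoa1 (chr9:46036713-46038552, plus strand), Apoc3 (chr9:46041133-46043719, minus strand), Apoa4 (chr9:46048927-46051541, plus strand) and Apoa5 (chr9:46076691-46080002, plus strand) spanned 43290 bases, with 2580, 5207 and 25149 bases between neighbours. On chromosome 7, Apoc2 (chr7:20256928-20263290), Apoc1 (chr7:20274829-20278008) and Apoe (chr7:20281593-20284537), all on the minus strand, spanned 27610 bases. The remaining members were Apoa2 on chromosome 1 (chr1:173151695-173156510, plus strand), Apob on chromosome 12 (chr12:7984483-8023645, plus strand) and Apom on chromosome 17 (chr17:35265942-35268697, minus strand). Each span covers the whole gene, exons and introns together.

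Because Apoa1 and Apoa4 were the members called between strains, and Apoc3 lies between them and was not called, the 200 bases before each of these genes are shown. They were read from the mm9 reference, which is derived from a B6 mouse, 5′ to 3′ on the strand of the gene, and end at the base before the outermost start in the files or in the GENCODE vM1 annotation. That start was 50 bases upstream of the files' start for Apoa1, 148 bases for Apoa4 and 0 for Apoc3, and among the other members it was 29 bases for Apob, 298 for Apom and 3482 for Apoc2. Capitals mark matches, on either strand, to GTTAAT, the core of the HNF1 site, or AGGTCA, the core of nuclear receptor sites. The windows lie at chr9:46036463-46036662 for Apoa1, chr9:46048579-46048778 for Apoa4 and chr9:46043720-46043919 for Apoc3.
Apoa1: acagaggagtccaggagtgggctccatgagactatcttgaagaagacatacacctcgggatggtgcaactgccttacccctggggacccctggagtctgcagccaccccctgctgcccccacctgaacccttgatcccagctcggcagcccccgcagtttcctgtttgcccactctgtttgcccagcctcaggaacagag
Apoa4: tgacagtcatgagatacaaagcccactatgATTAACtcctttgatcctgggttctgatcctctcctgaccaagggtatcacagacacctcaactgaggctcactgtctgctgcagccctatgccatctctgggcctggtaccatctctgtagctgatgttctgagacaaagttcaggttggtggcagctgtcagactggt
Apoc3: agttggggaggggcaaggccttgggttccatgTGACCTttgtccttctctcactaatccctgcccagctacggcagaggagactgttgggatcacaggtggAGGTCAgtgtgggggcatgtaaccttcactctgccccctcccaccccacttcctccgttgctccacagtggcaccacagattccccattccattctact

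In the 250 bases upstream, GTTAAT occurred in 1 of the 10 members (Apoa4, 170 to 165 bases before the start) and in 5.89% of 24318 such windows over all loci. AGGTCA occurred in 3 members (Apoa2, Apoc2 and Apoc3) and in 12.9% of windows. The window of Apoc2 begins 3482 bases upstream of its start in the files. It lies across the start of Apoc4 and of a readthrough gene of Apoc4 and Apoc2, so that match is not near the files' start of Apoc2. The windows of Apoa1, Apoa4, Apob and Apom end at starts 50, 148, 29 and 298 bases upstream of those in the files. The bases between were not searched. The TATA box motif TATAAA was present in 2 members, Apoa5 and Apob, in both 31 to 26 bases before the start, against 12.1% of windows. CCAAT occurred in 1 member, Apoa2, against 35.2% of windows, and CAAAGTCCA, a form of the HNF4 site, in 0 of the 10 against 0.378% of windows. These are matches of letters, and the sequence of the C3 strain was not examined.

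Measured per transcript length, apolipoprotein messages were among the most abundant of the liver. The 10 genes together made up 7.46% ± 0.991 (SD, n = 20) of all TPM, with a range over livers of 5.76% to 8.93%. Apoe, the ligand of the low density lipoprotein receptor family, had the second highest mean TPM of all loci after Alb, and Apoa2, Apoa1 and Apoc1 ranked 3, 6 and 9. Within the family, Apoe held 30.2% of the summed TPM on average, Apoa2 23.2%, Apoa1 21.8% and Apoc1 14.5%. Apoc2, the cofactor that lipoprotein lipase needs, was listed lowest, at 11.3 TPM and rank 6184.

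The order of the levels was similar in the 4 groups. In B6 females the mean TPM fell from Apoe (22549 ± 3066, SD, n = 5) through Apoa2 (16937 ± 5487), Apoa1 (11044 ± 2919) and Apoc1 (10461 ± 1486), whose neighbouring ranges overlapped, to Apoc3 (3382 ± 493) and Apob (2321 ± 85.1), each separate from the next. Apoa5 (998 ± 280) and Apom (663 ± 247) overlapped, and Apoa4 (215 ± 80.1) and Apoc2 (12.9 ± 1.77) lay below. In B6 males the order was the same, but Apoc3 (2847 ± 378) and Apob (2456 ± 187) overlapped and Apoa5 and Apom did not. In C3 livers of both sexes Apoa1 stood above Apoa2, and Apoa4 above Apom. In C3 males Apoa1 (22375 ± 3763) also stood above Apoe (21965 ± 2673), and in C3 females Apoa4 (1082 ± 413) above Apoa5 (980 ± 316), with overlapping ranges in both cases.

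**Figure D1:**
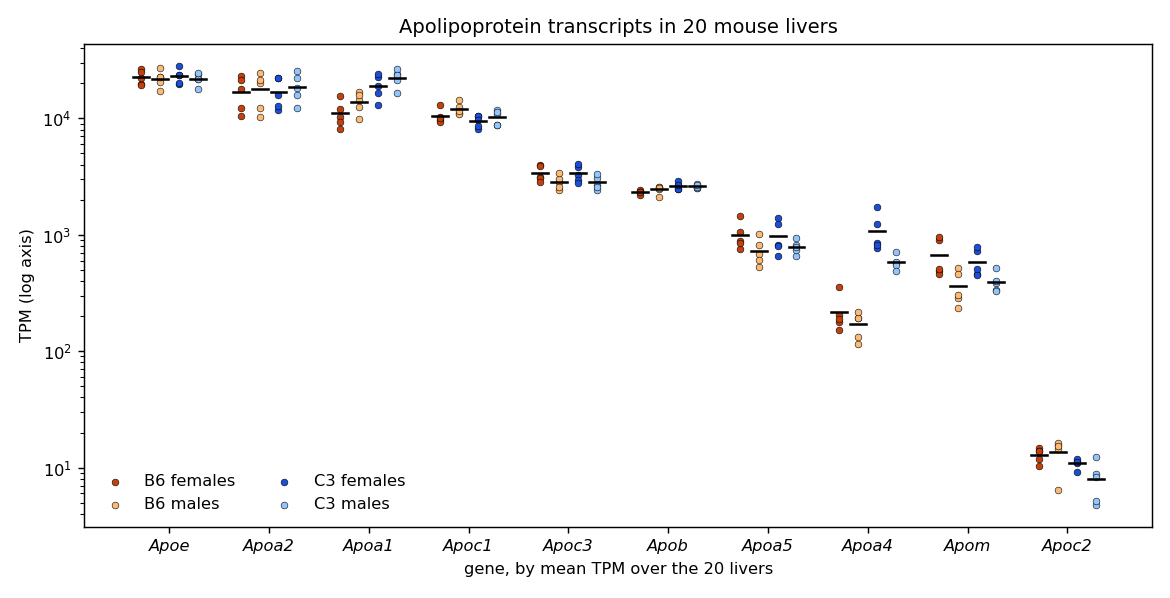
TPM of each apolipoprotein gene in 20 livers on a log axis, genes ordered by mean TPM, with 1 point per liver, colours for the 4 groups and black bars for the means of 5 mice. Apoa4 is the member whose groups stand farthest apart, with all C3 livers at or above 490 TPM and all B6 livers at or below 355 TPM.

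The low value of Apoc2 comes with a limit of the counting. Its whole span is also covered on the same strand by a readthrough gene, Apoc4-apoc2 (chr7:20256928-20266809), and read pairs that overlapped more than 1 gene were not counted. Apoc2 received 3294 counts in all 20 libraries, from 69 to 266 in each, and the readthrough gene 2, while the neighbouring Apoc4 received 200983. The level of Apoc2 is therefore a lower limit, and its differences between groups are uncertain. Apoa2 overlaps Tomm40l on the other strand, which strand-specific counting keeps apart.

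The members varied to very different degrees over the 20 livers, a spread that includes the differences between groups and pools. Apob was the steadiest, with a highest value 1.35 times the lowest over the 20 livers and a coefficient of variation between 3.41% and 7.61% within groups. Apoc3, Apoe and Apoc1 spanned 1.65-, 1.65- and 1.76-fold, Apoa2, Apoa5 and Apoa1 2.49-, 2.74- and 3.27-fold, Apoc2 3.43-fold and Apom 4.05-fold. Apoa4 spanned 15.3-fold.

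Next, female and male livers were compared within each strain, and C3 and B6 livers within each sex. Differences were tested with edgeR's quasi-likelihood test on the counts, with group and pool in 1 model over the 20 libraries and Benjamini-Hochberg adjustment over the 13704 loci tested. The thresholds of the study defined a call, namely an adjusted p under 0.001 together with a log2 fold change beyond 0.5 either way. Fold changes below are log2 values of normalized counts, given with their standard error (SE), and compare groups for 1 gene, not genes with each other.

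Apoa4 and Apoa1 were higher in C3 than in B6 livers of both sexes, and were the members called in these comparisons. Thus 2 of 10 members were called in females, where 9.4% of all loci tested were called, and 2 of 10 in males, against 9.64%. The median log2 fold change of the 10 members was 0.07 in females and 0.13 in males, beside 0.02 and 0.01 over all loci tested. In bulk liver, fewer cells of a type and less RNA per cell cannot be told apart. The B6 groups and the C3 groups each enter a strain and a sex comparison, so these comparisons share livers.

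Apoa4, an exchangeable apolipoprotein of triglyceride-rich particles and high density lipoprotein, showed the largest strain difference of the family. In B6 females its TPM was 151, 180, 204, 355 and 187 in mice 1 to 5, and in C3 females 1742, 770, 1236, 854 and 808. B6 males had 193, 194, 114, 131 and 215 TPM, and C3 males 572, 586, 552, 490 and 707. The lowest C3 liver of each sex was above the highest B6 liver of that sex. The log2 fold change was 2.40 ± 0.22 (SE, adjusted p = 7.2e-08 by the edgeR quasi-likelihood test) in females, a 5.27-fold difference, and 1.76 ± 0.21 (adjusted p = 3.2e-06) in males, a 3.38-fold difference. Within pools 1, 2 and 3 the log2 differences were 1.78, 3.12 and 2.63 in females and 1.53, 1.78 and 2.10 in males. Each pool held only 1 or 2 mice of a group. Summed enterocyte markers, the defining set of the other main source of Apoa4, averaged 109 TPM in B6 females against 136 in C3 females, and 134 in B6 males against 128 in C3 males, with Fabp2 at 109, 135, 134 and 128 TPM. The intestinal transcription factors Cdx1 and Cdx2 were at 0 in every liver of the 4 groups. Alpi, Rbp2 and Sis were at 0 in both B6 groups and C3 females, with at most 7, 4 and 3 counts in a C3 male. Lct had at most 2 counts in any liver. Of the 8 markers 2 were tested, Fabp2 and Vil1. Vil1, the other enterocyte marker that could be tested, averaged 0.109 and 0.431 TPM in B6 and C3 females and 0.0863 and 0.261 TPM in males, with a log2 fold change of 2.03 ± 0.44 in females (adjusted p = 0.0014, edgeR) and 1.64 ± 0.50 in males (adjusted p = 0.016), and its link with Apoa4 was not tested.

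Apoa1, the main structural protein of high density lipoprotein and activator of Lcat, differed less but in every pool. Its TPM was 10247, 9242, 8104, 15577 and 12052 in B6 females and 18929, 12984, 16577, 22504 and 23937 in C3 females. In B6 males it was 14259, 16728, 12524, 9903 and 15796, and in C3 males 21336, 23932, 26485, 16487 and 23637. The ranges of the strains overlapped in both sexes, but within each pool every C3 liver lay above every B6 liver of the same sex. The log2 fold change was 0.84 ± 0.11 (adjusted p = 1.3e-05, edgeR) in females and 0.71 ± 0.12 (adjusted p = 9.9e-05) in males, or 1.79-fold and 1.64-fold. Within pools 1, 2 and 3, with 1 or 2 mice of a group in each, the log2 differences were 0.85, 1.25 and 0.66 in females. In males they were 0.68, 0.72 and 0.66. Without pool 3 the male value was 0.74 with an adjusted p of 0.0014, which misses the threshold, and without the pool term in the model neither sex passed.

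Markers of other cells also moved with strain. Of the 7 Kupffer cell markers, 3 were called lower in C3 females and 2 lower in C3 males, against calls for 9.4% and 9.64% of all loci. Their median log2 fold changes were −0.55 and −0.36, and their summed TPM averaged 443 in B6 against 298 in C3 females and 285 against 207 in males. The 7 stellate cell markers had medians of −0.41 and −0.21, with 1 called in each sex, higher in C3. Endothelial markers had medians of −0.14 and −0.13. The 5 leukocyte markers tested, at low levels, had −0.31 and −1.42, with 1 called lower in C3 males. The summed TPM of the 8 hepatocyte markers averaged 116831 in B6 against 147822 in C3 females and 90011 against 113069 in males. Most of each sum was Alb, at 94241 against 125358 TPM in females and 65382 against 88349 TPM in males. The median log2 fold changes of the 8 were 0.03 in females and 0.10 in males. By edgeR 0 of them were called, against 9.4% and 9.64% of loci. At an adjusted p under 0.05 there were 2 in females and 1 in males, against 32.9% and 34.5% of loci. The part of these cell markers in the differences of Apoa4 and Apoa1 was not tested.

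Their cluster neighbours gave small values. Apoc3, an inhibitor of lipoprotein lipase and of remnant uptake, had log2 fold changes of 0.06 ± 0.06 (95% confidence interval, −0.06 to 0.19) in females and 0.10 ± 0.06 (−0.03 to 0.23) in males. Apoa5, which promotes hydrolysis of triglycerides, had 0.02 ± 0.09 (−0.16 to 0.20) in females and 0.30 ± 0.09 (0.11 to 0.49) in males, with an adjusted p of 0.015 by edgeR in males. None of these intervals reached 0.5. Of 13 genes that flank the clusters on chromosomes 9 and 7, 2 were called in females and 1 in males, all higher in C3, against 9.4% and 9.64% of all loci. By sex 0 were called in either strain by edgeR, against 6.34% of loci in B6 and 6.9% in C3. At an adjusted p under 0.05 there were 4 in B6 and 3 in C3, against 34.6% and 40% of loci. The genes called were Cblc (1.11 ± 0.12 in females and 0.93 ± 0.12 in males) and, in females, Pvrl2 (0.59 ± 0.10), both from the side of chromosome 7.

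Among the other members, Apob had a log2 fold change of 0.25 ± 0.06 in females (adjusted p = 0.0040, edgeR) and 0.17 ± 0.06 in males (adjusted p = 0.050). Its TPM did not overlap between female groups, with 2178 to 2406 in B6 and 2487 to 2879 in C3, so that 2 of 10 members, Apoa4 and Apob, had separate female groups, against 12.9% of all loci tested. In males 1 member, Apoa4, had separate groups, against 15.3% of loci. Apoe had 0.10 ± 0.06 in females and −0.02 ± 0.06 in males. Apoa2, the second protein of high density lipoprotein, had 0.08 ± 0.09 and 0.06 ± 0.09, and Apoc1, an inhibitor of receptor binding, −0.07 ± 0.07 and −0.20 ± 0.07. Apom had −0.07 ± 0.08 in females and 0.37 ± 0.08 in males (adjusted p = 0.0025). Apoc2 had −0.16 ± 0.21 and −0.70 ± 0.22 (adjusted p = 0.017 in males), on the low counts described above. At an adjusted p under 0.05 with no limit on the fold change, 3 of 10 members passed in females, all higher in C3, against 32.9% of loci, and 6 of 10 in males, 4 higher and 2 lower, against 34.5%.

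**Figure D2:**
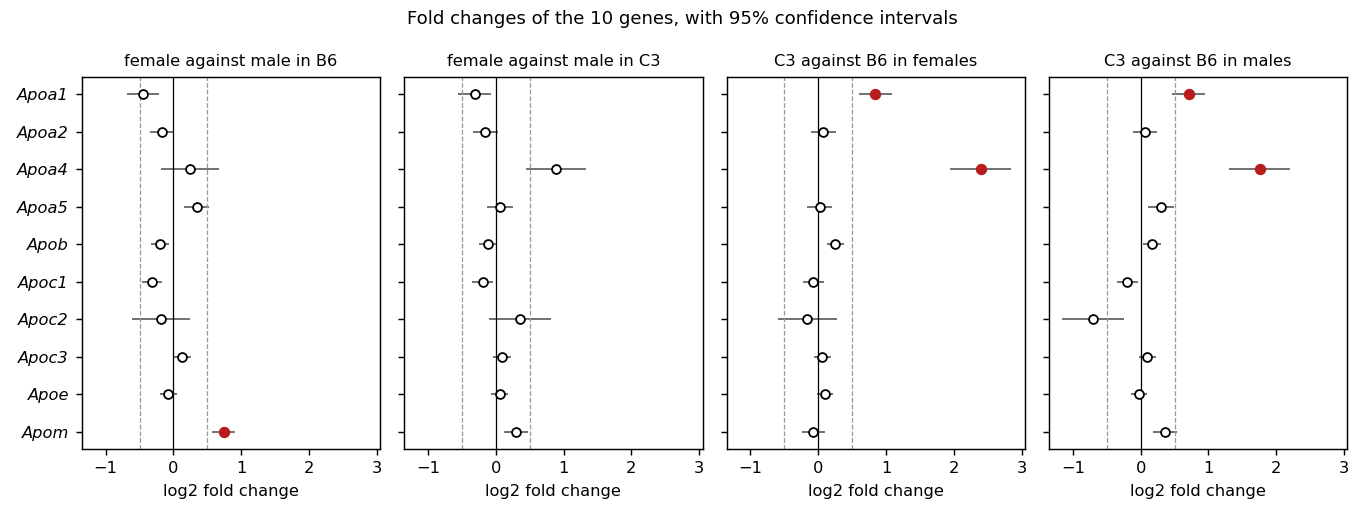
Log2 fold changes of the 10 genes in the 4 comparisons, with 95% confidence intervals from the edgeR fit. Filled red points were called and dashed lines mark the limit of 0.5 either way. Apoa4 and Apoa1 were called in both strain comparisons, and Apom in the B6 sex comparison.

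Apom, which binds sphingosine 1-phosphate and is carried on high density lipoprotein, was higher in B6 females than in B6 males and was the 1 of 10 members called in that comparison, against 6.34% of all loci. Its TPM was 905, 959, 489, 457 and 506 in B6 females and 286, 237, 520, 463 and 305 in B6 males. The ranges overlapped over the whole groups, but within each of the 3 pools, with 1 or 2 mice per sex, every female lay above every male. The log2 fold change was 0.74 ± 0.08 (adjusted p = 2.2e-06, edgeR), a 1.67-fold difference, and 0.72, 0.70 and 0.80 within pools 1, 2 and 3. Without the pool term the value was 0.75 with an adjusted p of 0.039, above the threshold.

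In C3, 0 of 10 members were called between females and males by edgeR, against 6.9% of all loci, and 0 by DESeq2 or limma, while 4 had an unadjusted p under 0.05, against 49% of loci. Apom had 461, 731, 783, 503 and 453 TPM in C3 females and 385, 337, 331, 516 and 401 TPM in C3 males, again with every female above every male of the same pool. Its log2 fold change was 0.30 ± 0.08 (adjusted p = 0.0090, edgeR), and 0.43, 0.12 and 0.40 within the pools, each with 1 or 2 mice per sex. Apoa4 had 0.89 ± 0.21 (adjusted p = 0.0030), was higher in all C3 females than in any C3 male, and was the 1 of 10 members with separate groups, against 14.6% of loci. In B6 it had 0.25 ± 0.20 (adjusted p = 0.37), a value that was −0.0072 without B6 female 4, the mouse with 355 TPM. In B6, 0 of 10 members had separate groups of females and males, against 12.4% of loci.

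Apoa1 and Apoc1 had negative female-to-male values in both strains. For Apoa1 the log2 fold change was −0.44 ± 0.11 (adjusted p = 0.0057, edgeR) in B6 and −0.31 ± 0.12 (adjusted p = 0.039) in C3. For Apoc1 it was −0.32 ± 0.07 (adjusted p = 0.0025) in B6 and −0.20 ± 0.07 (adjusted p = 0.042) in C3. Apoa5 was the reverse in B6, at 0.34 ± 0.09 (adjusted p = 0.0062), and 0.06 ± 0.09 in C3. Apob had −0.20 ± 0.06 (adjusted p = 0.021) in B6 and −0.11 ± 0.06 in C3. At an adjusted p under 0.05 alone, 5 of 10 members passed in B6 (2 higher and 3 lower in females, against 34.6% of loci) and 4 of 10 in C3 (2 higher and 2 lower, against 40% of loci). The medians over the 10 members were −0.12 and 0.06, beside 0.00 and 0.01 over all loci tested.

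Apoa2, Apoc2, Apoc3 and Apoe had no adjusted p under 0.05 by sex in either strain. Apoa2 had −0.17 ± 0.09 in B6 and −0.16 ± 0.09 in C3, with intervals from −0.35 to 0.01 and from −0.34 to 0.03. Apoc3 had 0.13 ± 0.06 and 0.09 ± 0.06, and Apoe −0.07 ± 0.06 and 0.05 ± 0.06, the sign of Apoe in B6 turning on log2 TPM in place of normalized counts. Apoc2 had −0.18 ± 0.21 and 0.36 ± 0.22. Summed TPM of Kupffer cell markers, which moved with sex as well as with strain, averaged 443 and 285 in females and males of B6 and 298 and 207 in those of C3, those of stellate cells 442, 320, 386 and 307, and those of endothelial cells 323, 241, 284 and 230. Hepatocyte markers summed to 116831, 90011, 147822 and 113069 TPM in the same order, of which Alb was 94241, 65382, 125358 and 88349 TPM. The median log2 fold changes of the 8 hepatocyte markers by sex were 0.05 in B6 and −0.11 in C3. In each strain 1 of these 8 was called, lower in females, against 6.34% and 6.9% of loci. Kupffer cell markers had medians of 0.49 in B6 and 0.40 in C3, stellate 0.38 and 0.29, and endothelial 0.30 and 0.27. Of 7 Kupffer cell markers 1 was called in each strain, higher in females, and of the stellate and endothelial markers 0. At an adjusted p under 0.05, 4 of 7 stellate and 6 of 6 endothelial markers passed in each strain, against 34.6% and 40%. The part of these cell markers in the differences of Apom, Apoa1 and Apoc1 was not tested.

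The interaction of sex and strain, which tests whether the female-to-male difference itself differed between C3 and B6, called 0 of 10 members by edgeR, against 0.401% of loci. DESeq2 and limma also called 0, and 3 members had an unadjusted p under 0.05, against 16.1% of loci. Apom came nearest, with a sex difference smaller in C3 by 0.44 ± 0.12 on the log2 scale (interval of C3 less B6, −0.68 to −0.19, adjusted p = 0.051 by edgeR). For Apom the adjusted p was 0.012 by DESeq2 (−0.44) and 0.037 by limma on log2(TPM + 1) (−0.45), both under 0.05 but not called. For Apoa4 the C3 less B6 value was 0.64 ± 0.29 (0.03 to 1.25, adjusted p = 0.28) and for Apoa5 it was −0.28 ± 0.13 (−0.54 to −0.01, adjusted p = 0.28). The intervals of Apoa1, Apoa2, Apob, Apoc1, Apoc2, Apoc3 and Apoe all included 0.

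Several members differed between the sequencing pools, to which the libraries had been assigned at random. Between pools 3 and 1, 4 of 10 members were called by the same edgeR fit, against 20% of all loci. Apoa2 in pool 3 was at 0.499 times its pool 1 level (SE of the log2 value, 0.07, adjusted p = 7.3e-10) and Apoa1 was lower by a log2 value of −0.61 ± 0.09 (adjusted p = 1.6e-05), while Apom (0.75 ± 0.07, adjusted p = 1.8e-08) and Apoa5 (0.63 ± 0.07, adjusted p = 5.0e-07) were higher. Between pools 2 and 1, 0 of 10 were called, against 1.16% of loci, and 6 had an unadjusted p under 0.05, against 35.8%. Depth was also highest in pool 3, and its part in these differences was not tested.

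Apoa2 showed the pool most plainly. Its TPM was 10205 to 12739 in the 7 livers of pool 3, 15794 to 20037 in the 5 of pool 2 and 21285 to 25364 in the 8 of pool 1, with no overlap whatever the sex or strain. Within a pool the groups were close, with log2 differences between −0.25 and 0.24 in the 4 comparisons. Apoe lay at 17035 to 20544 TPM in pool 3, below all values of pools 1 and 2, and the summed share of the family was 6.27% ± 0.43 in pool 3 against 8.15% ± 0.491 in pool 1 and 8.01% ± 0.427 in pool 2. Apob, at 0.03 ± 0.05 between pools 3 and 1, did not share this.

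**Figure D3:**
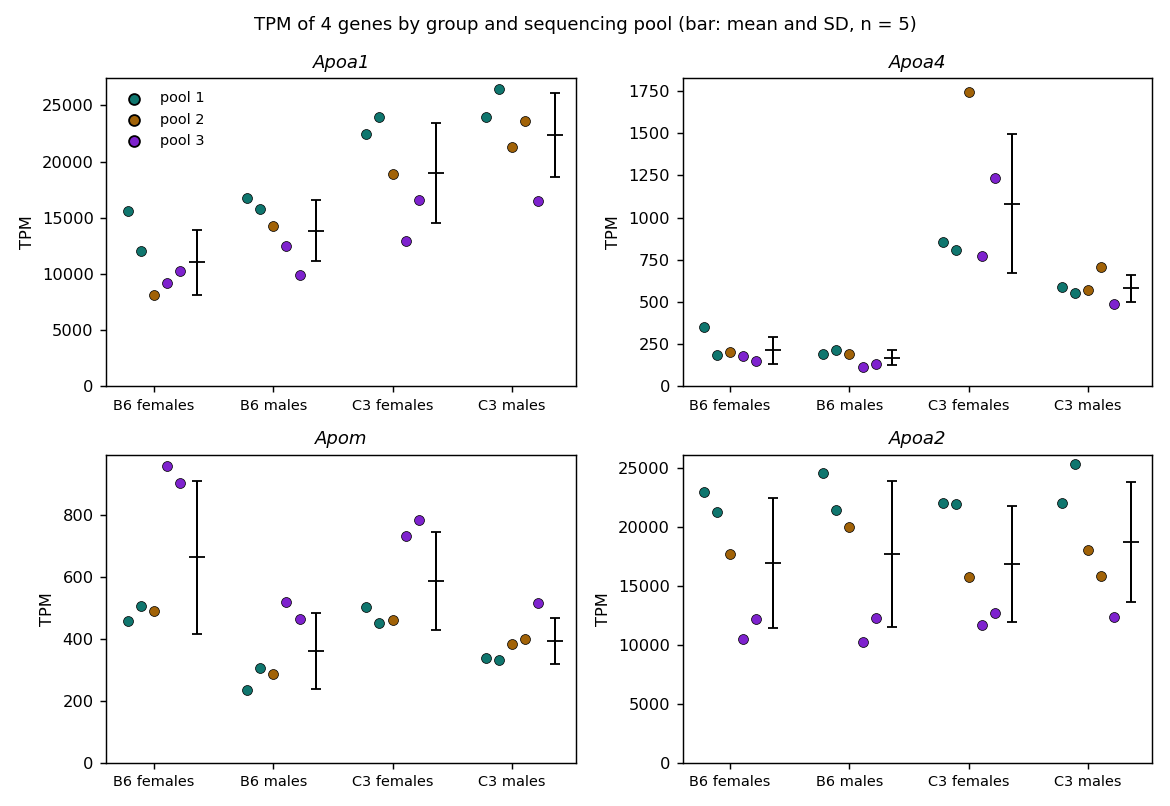
TPM of Apoa1, Apoa4, Apom and Apoa2 in each liver by group, coloured by sequencing pool, with the mean and SD of 5 mice at the right of each group. Apoa2 is ordered by pool in every group, and Apom is highest in pool 3 of every group, whereas the C3 values of Apoa4 exceed the B6 values in all pools.

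**Figure D4:**
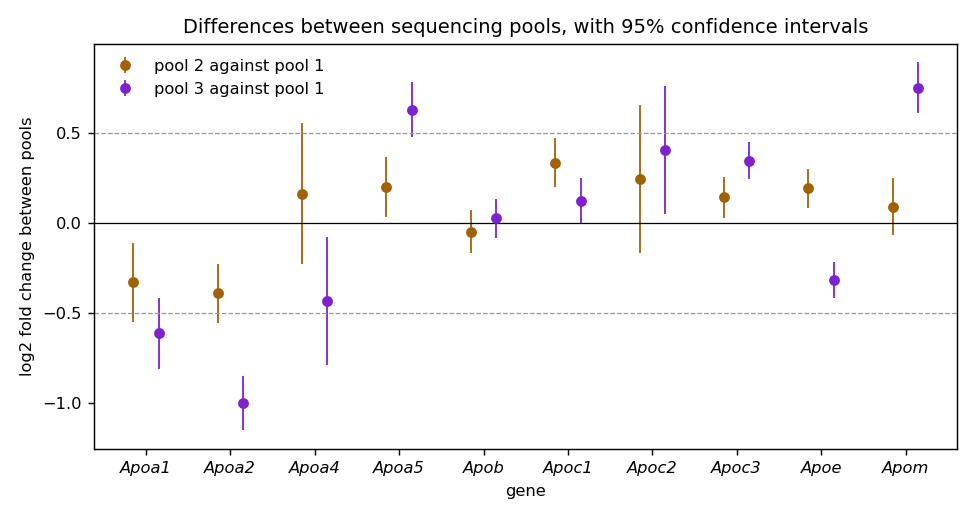
Log2 fold changes of each gene for pools 2 and 3 against pool 1, with 95% confidence intervals, after the groups were taken into account. For pool 3, Apoa2 and Apoa1 lie below the lower dashed line at 0.5 and Apoa5 and Apom above the upper one.

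With group and pool removed, no pair of members varied together from mouse to mouse beyond the adjusted threshold. The permutation treated the 20 residuals as independent although group and pool had been fitted, so its p-values are too small. With 45 pairs and 20 livers, weaker relations could be missed. Of the 45 pairs, 0 had an adjusted p under 0.05 for Pearson's r over 20 livers (two-sided permutation test with 100000 resamples, adjusted over the 45 pairs), and 4 had an unadjusted p under 0.05. The strongest relation joined Apoa2 and Apoc3, with r = 0.646 (permutation p = 0.0021, adjusted p = 0.097) and Spearman's rho = 0.556 (permutation p = 0.012, adjusted p = 0.17). Without the 2 livers farthest from the median of Apoa2, r was 0.511. The most negative joined Apoa1 and Apoc1, with r = −0.605 (permutation p = 0.0047, adjusted p = 0.11) and rho = −0.579 (permutation p = 0.0083, adjusted p = 0.17), and r = −0.44 without the 2 farthest livers. With the group removed and the pool kept in, 19 pairs passed, 8 positive and 11 negative.

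For the 3 called members, the loci tested whose pattern over the 20 livers was nearest were found from the mean absolute difference of log2 counts, scaled to library size and centred on each gene. For Apoa4 they were Fut10 (0.25 on the log2 scale) and Atp8b5 (0.34), which averaged 1.21 and 1.49 TPM. For Apoa1 they were Snx7 (0.17) and Tcf7l1 (0.17), and for Apom H2-T23 (0.14), also on chromosome 17, and Mfsd1 (0.16).

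Other genes of lipoprotein metabolism were taken from lists of related function. The counts of calls below stand beside shares over all loci tested. These were 6.34% by sex in B6, 6.9% by sex in C3, 9.4% between strains in females, 9.64% in males and 0.401% in the interaction. At an unadjusted p under 0.05 the share by sex in C3 was 49%. Of 13 further genes tested that carry an apolipoprotein name, among them the receptor gene Apobr and the apolipoprotein L domain gene Apold1, 1 was called higher in B6 females than in males and 0 in C3 by edgeR (2 at an unadjusted p under 0.05), and 1 was called lower in C3 females, 4 higher and 1 lower in C3 males than in B6. Apol7a was lower in C3 by −0.64 ± 0.11 in females and −0.70 ± 0.12 in males, and Apol9a was higher in C3 males by 0.86 ± 0.14 and Apol9b by 0.61 ± 0.11, the last 2 being close paralogs, whose shared reads were not counted. Apol9a was also the gene called higher in B6 females (0.71 ± 0.14). The 4 serum amyloid A genes, whose products ride on high density lipoprotein, gave 1 call by sex in C3 and 1 by strain in males. Saa4 was lower in C3 females than males (−0.69 ± 0.13), and Saa3 lower in C3 than B6 males (−1.25 ± 0.24). In the other 2 comparisons 0 were called by edgeR. At an adjusted p under 0.05 these held 2 genes in B6 by sex and 1 in females by strain, against 34.6% and 32.9%. There Saa4 had −0.49 ± 0.13 by sex in B6 (adjusted p = 0.0080, edgeR). Saa3 had −1.02 ± 0.24 in females by strain (adjusted p = 0.0027).

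Of 13 genes for assembly and secretion, 1 was called higher in females in each strain, and it was Tm6sf2, a membrane protein needed to lipidate very low density lipoprotein, at 1.19 ± 0.14 in B6 and 1.21 ± 0.14 in C3. Abca1, the lipid pump that loads Apoa1, was higher in C3 than in B6 females (0.60 ± 0.05) and the only call of that list there. Its value in males was 0.24 ± 0.06 (adjusted p = 0.0027, edgeR). P4hb, the partner subunit of the microsomal triglyceride transfer protein, was lower in C3 males (−0.57 ± 0.08) and the only call there. Its value in females was −0.49 ± 0.08 (adjusted p = 1.6e-04, edgeR), just short of the fold limit of 0.5. Of 14 enzymes and inhibitors, Lipc, hepatic lipase, was the 1 called in B6 by sex, higher in females by 0.65 ± 0.06, and Lpl, lipoprotein lipase, the 1 called in C3 by sex, lower in females by −2.25 ± 0.15. Short of the fold limit, Lipc had 0.42 ± 0.06 by sex in C3 (adjusted p = 4.3e-05, edgeR). Lpl had −0.44 ± 0.15 by sex in B6 (adjusted p = 0.026). Between strains, Pon1 (−0.68 ± 0.05) and Gpihbp1 (−0.51 ± 0.09) were the 2 called in females, both lower in C3, and in males Lpl was higher (1.51 ± 0.15) and Gpihbp1, the endothelial anchor of Lpl, lower (−0.60 ± 0.09) in C3. Pon1 had −0.41 ± 0.05 in males (adjusted p = 6.0e-06, edgeR), also short of the fold limit.

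Of 15 receptors tested, 2 were called in B6 by sex and 3 in C3. Vldlr was higher in females of B6 (2.41 ± 0.41) and C3 (3.07 ± 0.51) at low levels, with mean TPM of 3.16 and 0.583 in B6 females and males and 1.24 and 0.138 in C3. Lrp2 was lower in females (−2.53 ± 0.28 and −1.69 ± 0.29) but averaged no more than 0.524 TPM in any group. Cd36, a scavenger receptor that takes up fatty acids, was higher in C3 females than in C3 males (2.04 ± 0.22), with means of 51.2 and 11.4 TPM, and lower in C3 than in B6 males (−2.63 ± 0.22). Scarb1, the receptor for high density lipoprotein, was the 1 called between strains in females, higher in C3 by 0.57 ± 0.06. Scarb1 had 0.49 ± 0.07 in males (adjusted p = 1.0e-05, edgeR), just short of the fold limit of 0.5. In the interaction, Cd36 (2.14 ± 0.30, adjusted p = 4.3e-04) and Lpl (−1.80 ± 0.21, adjusted p = 6.0e-05) were the 2 listed genes called by edgeR, with Lpl at 8.24 and 10.3 TPM in B6 females and males and 6.38 and 27.7 TPM in C3.

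Of 25 transcription regulators of apolipoprotein genes, Esr1, the estrogen receptor, was the 1 called by sex in each strain, higher in females by 1.39 ± 0.13 in B6 and 1.01 ± 0.13 in C3. Foxa3 was the 1 called between strains in females, higher in C3 by 1.39 ± 0.19 (adjusted p = 1.6e-05, edgeR). Between strains in males 0 were called by edgeR, and 5 had an adjusted p under 0.05, against 34.5% of loci. Foxa3 was also higher in C3 males, by 0.80 ± 0.19 (adjusted p = 0.0033), with means of 63.5 TPM in C3 and 38.9 TPM in B6. Whether these genes bear on Apoa1, Apoa4 or Apom was not tested.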

How the data were processed

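The 10 genes and the 15 gene lists were chosen with earlier results of these data known. Total liver RNA of 20 mice had been sequenced as strand-specific, ribosomal RNA-depleted paired-end libraries. The authors trimmed read pairs with cutadapt 1.9.1, aligned them to mm9 with STAR 2.5.1b, and counted pairs per RefSeq gene by featureCounts (Subread 1.5.0-p1) without those that mapped to more than 1 place or overlapped more than 1 gene. The authors deposited raw counts per gene without normalization. The deposited TPM values divide counts by a gene length whose definition is not given in the sources used here. The headers of the symbol and identifier columns are exchanged and were read by content.

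Groups and pools came from the sample labels. Counts were filtered by filterByExpr, scaled by TMM and fitted with edgeR 4.0.16 (R 4.3.3, glmQLFit) with terms for group and pool. The methods of the study used DESeq2 with the same terms and thresholds, and DESeq2 1.42.0 and limma 3.58.1 were run as alternatives. Levels are deposited TPM with the SD over 5 mice, and differences within pools and co-variation used log2 CPM with a prior count of 2. Confidence intervals are at 95%. Library totals of 27370921 to 46835745 counts limit precision, and counting error is small for all members except Apoc2. Replicates of a group differed by at least 20 times the variance expected from counting (40 pairs), so none was a repeat. In simulated data of the sex comparison in B6 with 13571 genes, 161 of 200 changed genes were called with 0 false calls, 65 of 98 at a log2 change of 1 and 96 of 102 at 2.

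The genes named are all 10 members, for each list, comparison and direction the 2 called genes that changed most, listed genes called in the interaction, and the 2 loci nearest to each called member. Alternatives changed the test, scaling, filter, covariates, threshold, values and libraries. Leaving out the 7 libraries of pool 3 was added after the data were seen. Upstream windows were read from the mm9 reference sequence. Protein sequences were not used here.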

Additional observations from a re-analysis of the deposited data

Results flagged for a closer look

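In 4 of the 40 groups of 5 livers (10 genes in 4 groups), 1 liver stood apart from the others by more of the group's range than Dixon's criterion allows, which chance does in about 1 in 20 groups. For Apoa4 in B6 females, mouse 4 had 355 TPM and the next 204, a gap of 0.740 of the range. For Apoc1 in B6 females, mouse 3 had 13038 TPM and the next 10231, a gap of 0.749 of the range, and this liver was the only one of its group in pool 2. For Apob in B6 males, mouse 1, also the only one of its group in pool 2, had 2128 TPM and the next 2484, a gap of 0.787. For Apoc2 in B6 males, mouse 2 had 6.37 TPM from 84 counts and the next 14.5 TPM, a gap of 0.810. No member had an interaction of sex and strain with an adjusted p under 0.05 by edgeR, though Apom did by DESeq2 (0.012) and by limma on log2(TPM + 1) (0.037).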

How the results depend on the processing

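The counts of members called changed as follows. In the order B6 by sex, C3 by sex, females by strain, males by strain and interaction, 1, 0, 2, 2 and 0 members were called. Without the pool term they were 0, 0, 1, 1 and 0, and by glmTreat against 0.5 also 0, 0, 1, 1 and 0, Apoa4 being the member left in both strain comparisons. At an adjusted p under 0.05 alone they were 5, 4, 3, 6 and 0. Without pool 3, males by strain had 1, because Apoa1 (0.74) had an adjusted p of 0.0014. With 1 library left out at a time the count for C3 by sex ranged from 0 to 1, with Apoa4 called (0.87, adjusted p = 0.0007 by edgeR) without B6 female 4, and the other counts did not change. DESeq2, limma on log2 TPM, the 3 other scalings and no filter on low counts gave the same counts, as did only the groups compared for the 4 comparisons other than the interaction, which could not be fitted there. The pairs of members with correlated residuals rose from 0 to 19 with the pool kept in, and stayed 0 on log2(TPM + 1).

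Log2 fold changes changed sign only for values of members not called in that comparison. On log2 TPM, with 1 or 0.1 added, Apoe by sex in B6 was 0.045 in both, Apob by sex in C3 7.9e-06 and 6.9e-06, and in females by strain Apoa5 −0.046 in both and Apoc3 −0.0079 in both. On log2(TPM + 1) the members moved by a median of 0.12 and 0.11 in the sex comparisons of B6 and C3, and by −0.07 and −0.06 in the strain comparisons of females and males. Over all loci tested with a mean log2 CPM above the median, the shifts were the same, at 0.12, 0.11, −0.07 and −0.06. Apoa5 in females by strain was −0.015 with upper-quartile factors and ranged from −0.046 to 0.085 with 1 library left out. Without pool 3, Apoa5 was −0.063 by sex in C3 and −0.068 in females by strain, Apom 0.031 in females by strain and the Apoa2 interaction −0.0033. Without the pool term, Apoe was −0.041 by sex in C3 and 0.071 in males by strain, and the interaction was −0.085 for Apoa2 and 0.0036 for Apoc3. The Apoa2 interaction was −0.013 when scaling left out 100 genes, and ranged from −0.061 to 0.062 with 1 library left out, as Apoa4 by sex in B6 did from −0.0072 to 0.33. The cause was not tested.

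Over all loci, upper-quartile factors raised the share of calls that were higher in females to 64.3% in B6, against 50.9%, and to 70.0% in C3, against 59.6%, limma on log2 TPM with 1 added to 68.8% and 73.0% and with 0.1 added to 71.6% and 77.4%, and DESeq2 called 181 loci in the interaction against 55. Without the pool term the loci called were 421, 482, 815, 881 and 20, against 869, 945, 1288, 1321 and 55. Without pool 3 they were 380, 428, 626, 786 and 4, by glmTreat 294, 314, 525, 585 and 24, at an adjusted p under 0.05 alone 4742, 5479, 4515, 4733 and 405, and with only the groups compared 625 in C3 by sex. Same-numbered mice of 2 groups did not deviate together (mean correlations with group and pool removed from −0.013 to 0.10, and not over 0.1 in every pair), so the numbers do not pair the mice. A replicate block left the member counts at 1, 0, 2, 2 and 0, and no call changed. Low counts limit Apoc2 alone, with at most 266 in a library under the rule that left out pairs overlapping more than 1 gene.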
